A study of Mus musculus with 6 samples.

Results

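The transcripts that make, break down and sense prostaglandins were followed in the mouse spinal cord 4 h after a contusion. The set held 10 genes, Ptgs1, Ptgs2, Ptges, Ptges2, Ptges3, Ptgds, Ptgis, Hpgd, Ptger2 and Ptger4, out of 43432 gene identifiers in the count tables, and all 10 were present in the tables. The set was chosen from measured values of the same comparison, since it was proposed with results of injured against sham cord known. The fold changes and adjusted p-values below therefore describe where each gene lies among all genes tested and are not independent evidence that the family responded.

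Both groups were wildtype C57BL/6 mice. In the SCI group (spinal cord injury, n = 3) the cord received a blow of 50 kdyn on 1 side at cervical level 5 from an Infinite Horizon impactor, and tissue was collected 4 h later. In the sham group (n = 3) only a laminectomy was made, in which bone over the cord is removed, so both groups carried the surgical opening. The labels give no collection time for the sham mice and no age or sex for any animal. The libraries were 3′ tag libraries (QuantSeq Forward), in which a transcript gives reads near its end whatever its length, so that counts of different genes can be set side by side without a correction for length.

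Prostaglandins are short-lived lipid signals that are made from arachidonic acid, which phospholipases free from membranes. The cyclooxygenases, Ptgs1 and Ptgs2, turn it into prostaglandin H2, and terminal synthases then make prostaglandin E2, D2 or I2 from this common precursor. Ptgs1 is made constitutively in many cells, whereas Ptgs2 is an immediate-early gene whose short-lived RNA is induced by cytokines, growth factors and synaptic activity. Prostaglandin E2 is best known for its part in inflammation, fever and pain signalling.

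Total counts ranged from 3407176 to 11543633 in the sham libraries and from 5364263 to 8229961 in the SCI libraries, and between 17535 and 18442 genes were detected per library. A gene with no count could still have had up to 3, which is 0.289 to 0.813 CPM, a unit relative to the total of each library after scaling by TMM, a normalization that corrects the totals for composition. Such limits cover counting error only. Markers of cord cells were abundant in every library, with the summed level of 8 oligodendrocyte genes at 5758 to 9504 CPM. Liver transcripts were also present in every library. The summed level of 11 hepatocyte genes was 60659, 99391 and 42815 CPM in sham 1 to 3 and 59247, 54438 and 58711 CPM in SCI 1 to 3, and it was highest in sham 2. The 5 erythroid genes were all called higher after SCI (adjusted p under 0.05 in edgeR's quasi-likelihood F test), against 0.885% of all genes tested. They were at 610 to 840 CPM in sum in sham and 1582 to 4280 CPM in SCI. All levels are TMM-scaled CPM, given for libraries 1 to 3 of each group, and in bulk tissue a change in the number of cells of a type and a change in RNA per cell cannot be told apart.

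Of the 10 genes, 9 passed the filter on low counts and 2 of these, Ptgs2 and Ptges, were higher after SCI at a Benjamini-Hochberg adjusted p under 0.05 in edgeR's quasi-likelihood F test. None of the 9 was lower. Among all 13560 genes tested, 120 (0.885%) were called higher and 6 (0.0442%) lower. The SCI libraries all lay above the sham libraries for the same 2 genes, against 7.73% of all genes tested, and all below them for Ptges3 alone, against 5.94%. The median log2 fold change was 0.16 over the 9 genes and -0.0025 over all genes tested, and 6 of the 9 had a positive value. Since the comparison itself was used in choosing the set, nothing is read from these shares.

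**Figure D1:**
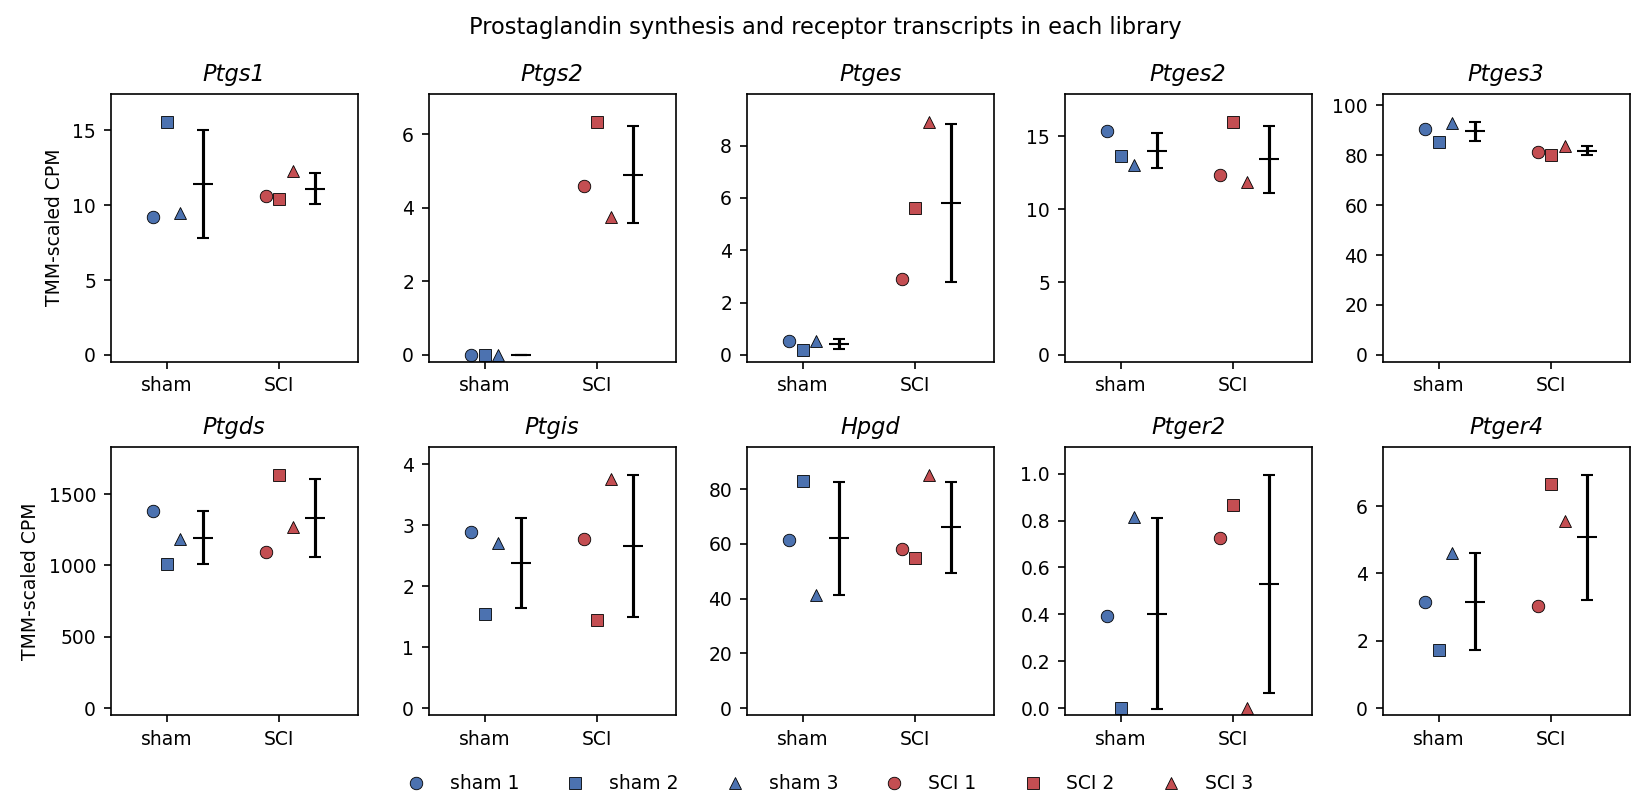
TMM-scaled CPM (y axis, linear from 0, a scale of its own in each panel) of the 10 genes in sham and SCI libraries. Each point is 1 library and the bar to the right of each group is the mean ± SD of 3 libraries. Ptgs2 lay at 0 in all sham libraries and Ptges at 0.542 CPM or below, and in both genes every SCI point was above every sham point.

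Ptgs2 and Ptges were the genes that stood apart, and their promoters are shown beside that of Ptgs1, the cyclooxygenase whose groups overlapped. Each sequence is the gene's strand, 5′ to 3′, with 250 bases before and 22 bases from the RefSeq transcription start (GRCm38.p6). They are Ptgs1 at chr2:36230176-36230447 on the + strand, Ptgs2 at chr1:150099781-150100052 on the + strand and Ptges at chr2:30903276-30903547 on the - strand. The RefSeq start of Ptges lies inside the GENCODE gene, whose 5′ end on the - strand is at 30929863. The sequence before that outer end was not searched, so the Ptges motifs below hold for the RefSeq start only. Capitals mark, in Ptgs2, a C/EBP palindrome and an overlapping pair of CRE core and E-box, and in Ptges 2 EGR motifs.
Ptgs1: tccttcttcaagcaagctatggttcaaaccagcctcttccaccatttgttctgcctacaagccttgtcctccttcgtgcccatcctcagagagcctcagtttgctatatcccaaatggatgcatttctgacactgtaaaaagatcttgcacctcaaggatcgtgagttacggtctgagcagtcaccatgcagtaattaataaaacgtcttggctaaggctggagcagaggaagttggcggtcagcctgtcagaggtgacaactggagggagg
Ptgs2: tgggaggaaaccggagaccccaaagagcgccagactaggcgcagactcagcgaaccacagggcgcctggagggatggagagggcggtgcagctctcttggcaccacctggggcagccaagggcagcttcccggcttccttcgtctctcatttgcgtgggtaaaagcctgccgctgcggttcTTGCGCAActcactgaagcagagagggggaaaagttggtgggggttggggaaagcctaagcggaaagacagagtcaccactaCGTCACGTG
Ptges: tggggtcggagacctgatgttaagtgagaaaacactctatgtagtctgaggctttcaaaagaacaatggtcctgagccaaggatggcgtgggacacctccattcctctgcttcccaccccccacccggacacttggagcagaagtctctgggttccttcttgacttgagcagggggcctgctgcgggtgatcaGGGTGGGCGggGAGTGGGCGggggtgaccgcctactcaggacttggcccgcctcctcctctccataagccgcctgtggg

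Both strands of the promoters, 250 bases before to 50 after the start, were searched for 7 short motifs, a list drawn up after the sequences had been seen. For factors of the C/EBP family the letters were TTGCGCAA. The core of the cyclic AMP response element (CRE), which CREB factors bind, was searched as TGACG. An E-box, bound by basic helix-loop-helix factors, was CACGTG, and an AP-1 site, bound by Fos and Jun, was searched by name with the letters TGANTCA. The EGR motif, for early growth response factors, was GNGTGGGCG, whereas a GC box for Sp factors was GGGCGG. The last motif was the TATA box, with the letters TATAAA. A RefSeq promoter was matched for 9 of the 10 genes, all but Ptgis. In Ptgs2 the C/EBP palindrome covered bases -69 to -62, counted from the first transcribed base as 0. The CRE core, on the opposite strand, covered bases 13 to 17 and overlapped the E-box at bases 16 to 21. The C/EBP palindrome was found in 60 of 32851 promoters of the same length (0.183%), the CRE core in 20.8% and the E-box in 7.15%. In Ptges the 2 EGR motifs lay at -57 to -49 and -46 to -38, each overlapping a GC box, and 0.195% of promoters held at least 2 EGR motifs while 2.93% held at least 1. The Ptgs1 promoter held none of the 7 motifs. GC boxes, present in 35.7% of promoters, occurred in 5 of the 9. These matches describe letters only.

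**Figure D2:**
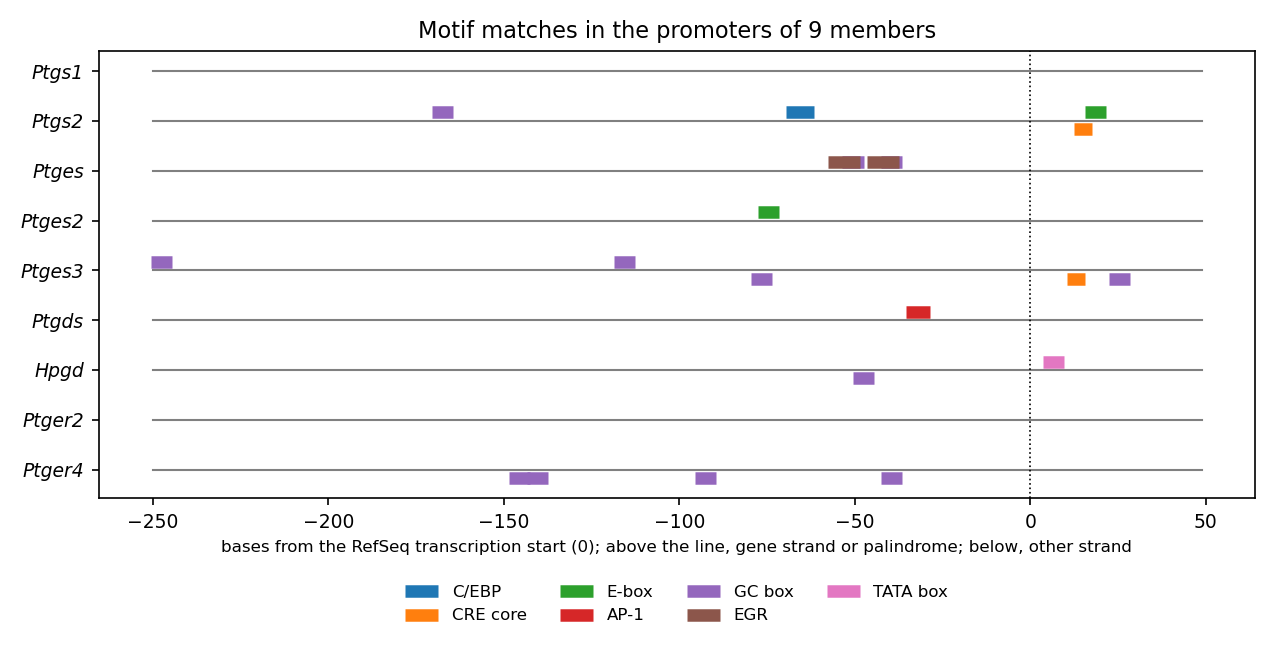
Matches of 7 short motifs (coloured bars) in the promoters of 9 prostaglandin genes, with the distance in bases from the RefSeq transcription start on the x axis. Bars above a line are on the gene's strand or palindromic and bars below it are on the other strand; Ptgs1 and Ptger2 held none, the C/EBP bar is found in Ptgs2 alone among the 9 and the EGR bars, drawn over GC boxes, in Ptges alone.

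Ptgs2, the inducible cyclooxygenase (ENSMUSG00000032487, GRCm38 chromosome 1, 150100031 to 150108227, + strand), was not counted in any sham library and was counted 38, 44 and 19 times in the SCI libraries. These counts corresponded to 4.59, 6.35 and 3.77 CPM, a mean of 4.90 ± 1.32 (SD, n = 3). All SCI libraries were above all sham libraries. A count of 0 in the sham libraries still allowed 0.394, 0.289 and 0.813 CPM. A floor of 3 counts over the whole sham group is 0.138 CPM on the scaled totals. The SCI level of 4.99 CPM over the pooled libraries was 36.1-fold this floor. The ratio leaves out the counting error of the SCI counts and the spread between animals, so it is not a strict lower bound. In edgeR's test Ptgs2 had an adjusted p of 0.000441, place 21 among 13560 genes by p. Its fitted log2 fold change of 8.11 ± 0.92 (SE) depends on the prior count, because the sham counts are 0, and sets no bound; limma voom gave 6.04.

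Ptgs1, the constitutive cyclooxygenase (ENSMUSG00000047250, chromosome 2, 36230426 to 36252272, + strand), was at 9.19, 15.6 and 9.49 CPM in sham and 10.6, 10.4 and 12.3 CPM in SCI. Sham 2 was the highest of the 6 libraries and the groups overlapped. The means were 11.4 ± 3.62 and 11.1 ± 1.03 CPM (SD, n = 3), with a log2 fold change of -0.07 ± 0.26 (SE, 95% interval -0.62 to 0.48).

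The makeup of the cyclooxygenase counts differed accordingly. In sham, 0 of 70, 0 of 162 and 0 of 35 counts of Ptgs1 plus Ptgs2 came from Ptgs2, which allows a share of up to 4.29%, 1.85% and 8.57% if 3 counts are taken as the limit. The Wilson 95% upper limits of these shares were 5.20%, 2.32% and 9.89%. In SCI the share was 30.2% (Wilson 95% interval 22.8 to 38.7), 37.9% (29.6 to 47.0) and 23.5% (15.6 to 33.8), a mean of 30.5 ± 7.24% (SD, n = 3). Ptgs1 still supplied the larger part of the cyclooxygenase counts in all 6 libraries.

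**Figure D3:**
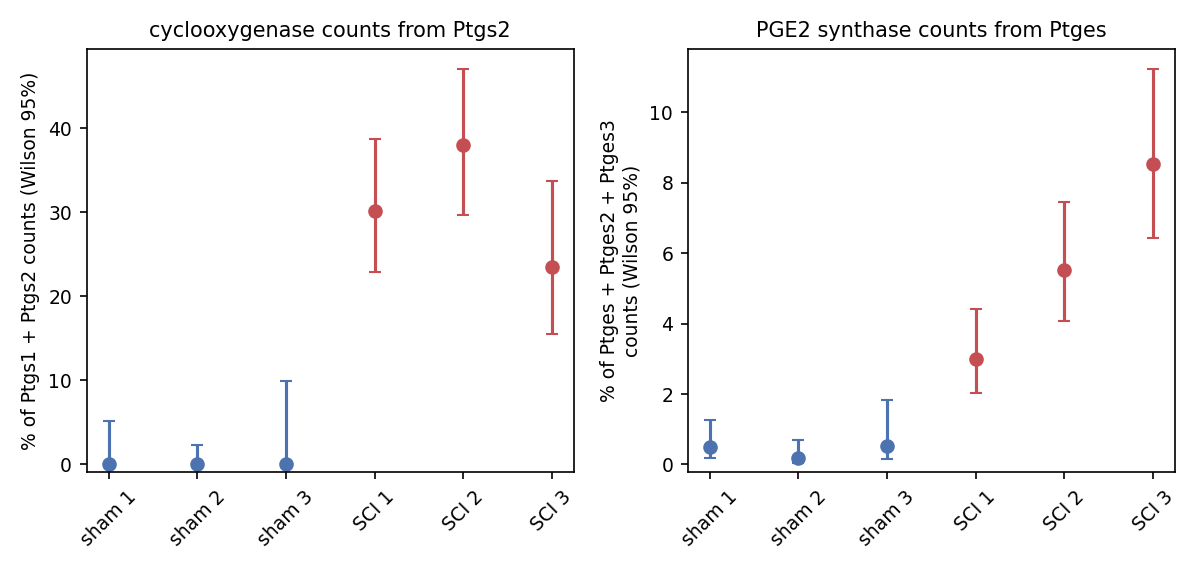
Percent of cyclooxygenase counts that came from Ptgs2 (left) and of prostaglandin E2 synthase counts that came from Ptges (right) in each library, with Wilson 95% intervals for counting error. The Ptgs2 share was 0 in the sham libraries (blue) and 23.5% to 37.9% in the SCI libraries (red), and the Ptges share was 0.194% to 0.509% and 3.00% to 8.54%.

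Ptges encodes the inducible microsomal prostaglandin E synthase that works with Ptgs2 (ENSMUSG00000050737, chromosome 2, 30889471 to 30929863, - strand). It was at 0.525, 0.193 and 0.542 CPM in sham, from 4, 2 and 2 counts, and at 2.90, 5.63 and 8.92 CPM in SCI, from 24, 39 and 45 counts. Every SCI library was above every sham library, and the SCI libraries differed among themselves by more than for Ptgs2. The means were 0.420 ± 0.197 and 5.82 ± 3.01 CPM (SD, n = 3), with a log2 fold change of 3.85 ± 0.60 (SE, 95% interval 2.58 to 5.12, adjusted p = 0.00290 by edgeR's quasi-likelihood test). Ptgs2 was highest in SCI 2 and lowest in SCI 3, whereas Ptges was highest in SCI 3 and lowest in SCI 1.

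Neither of the other prostaglandin E synthases was called. Ptges2, a membrane-associated synthase, was at 15.4, 13.7 and 13.0 CPM in sham and 12.3, 16.0 and 11.9 CPM in SCI, and the groups overlapped (log2 fold change -0.07 ± 0.22, SE, 95% interval -0.54 to 0.41). Ptges3, the cytosolic synthase that is also the Hsp90 co-chaperone p23, was at 90.5, 85.3 and 93.0 CPM in sham and 81.5, 80.3 and 83.7 CPM in SCI. Every SCI library was below every sham library for Ptges3, with means of 89.6 ± 3.92 and 81.8 ± 1.72 CPM (SD, n = 3), but the log2 fold change was small and did not pass the test (-0.13 ± 0.17, SE, 95% interval -0.48 to 0.22, adjusted p = 0.935 by edgeR). Ptges gave 0.494%, 0.194% and 0.509% of the counts of the 3 synthases in sham (0.399 ± 0.178%, SD, n = 3) and 3.00%, 5.52% and 8.54% in SCI (5.69 ± 2.77%). Ptges3 was the most counted of the 3 in all libraries.

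Sums of leukocyte markers stood beside these results as follows. The 8 neutrophil genes summed to 27.7, 48.3 and 15.5 CPM in sham and to 54.5, 72.9 and 68.2 CPM in SCI, without overlap, although none of the 6 that were tested was called. Of the neutrophil genes, Camp and Ltf were at 0 in sham 3 and Cxcr2 was at 0 in sham 1. The sum of the microglial list overlapped between the groups, at 295 to 364 CPM in sham and 317 to 408 CPM in SCI. Of the 8 microglial genes 1, P2ry12, was called lower, against 0.0442% of all genes tested. Monocyte genes summed to 281 to 573 CPM in sham and 385 to 587 CPM in SCI, mostly from F10, which the liver also makes. Ccr2, Ly6c2 and Plac8 of that list had too few counts to be tested. Endothelial genes summed to 177 to 209 CPM in sham and 204 to 242 CPM in SCI. The most counted was Slco1a4, at 108 ± 28.0 and 103 ± 17.5 CPM (SD, n = 3). In sham 1 to 3 Slco1a4 was at 115, 131 and 76.7 CPM, the order of the hepatocyte sum. Among the SCI libraries Slco1a4 was highest in SCI 3 and the hepatocyte sum in SCI 1. The part of liver transcripts in both sums was not tested. The part of these cell types, and of blood and liver transcripts, in the levels of Ptgs2 and Ptges was not tested. With the hepatocyte level as a covariate the log2 fold changes were 7.74 ± 0.95 for Ptgs2 and 3.59 ± 0.59 for Ptges (SE). Both were still called (adjusted p = 5.54e-05 and 0.000825 by edgeR). This fit cannot decide the part of liver transcripts. Ptgs2 was at 0 in every sham library, and the hepatocyte sum varied mainly among the sham libraries (SD 28923 CPM in sham, 2636 in SCI).

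Ptgds, the lipocalin-type prostaglandin D synthase that is secreted into the cerebrospinal fluid (ENSMUSG00000015090, chromosome 2, 25466709 to 25470046, - strand), was by far the most counted gene of the set. It was at 1385, 1011 and 1188 CPM in sham and 1094, 1636 and 1269 CPM in SCI, and gave 83.4% to 90.0% of the counts of the 10 genes and 0.0909% to 0.174% of all counts of a library. The groups overlapped, and SCI 2 was the highest of the 6 libraries and sham 2 the lowest. The means were 1195 ± 187 and 1333 ± 276 CPM (SD, n = 3), with a log2 fold change of 0.16 ± 0.25 (SE, 95% interval -0.37 to 0.69). Ptgds is known in the cord from leptomeningeal cells and oligodendrocytes, and in the brain also from the choroid plexus. The oligodendrocyte sum was 7499, 6151 and 8336 CPM in sham and 7981, 9504 and 5758 CPM in SCI, highest in SCI 2 like Ptgds. It was lowest in SCI 3, where Ptgds was above its level in sham 2, sham 3 and SCI 1. The sum of 10 leptomeningeal genes was 415, 536 and 323 CPM in sham and 393, 414 and 455 CPM in SCI, most of it from Dcn. It was highest in sham 2, where Ptgds was lowest and the hepatocyte sum highest, and the part of the liver transcripts in it was not tested. The 5 choroid plexus genes summed to 0.484 to 1.63 CPM and Otx2 was at 0 in all libraries.

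Ptgis, the synthase of prostacyclin in vessel walls, was counted 10 to 23 times per library, at 2.89, 1.54 and 2.71 CPM in sham and 2.78, 1.44 and 3.77 CPM in SCI. The groups overlapped, and the log2 fold change of 0.18 ± 0.47 (SE) had a wide 95% interval, -0.83 to 1.18. Hpgd, the dehydrogenase that starts the inactivation of prostaglandin E2, was at 61.6, 82.9 and 41.5 CPM in sham and 58.1, 55.0 and 85.2 CPM in SCI. Sham 2 and SCI 3 were highest and sham 3 lowest, and the groups overlapped widely. The means were 62.0 ± 20.7 and 66.1 ± 16.6 CPM (SD, n = 3), with a log2 fold change of 0.08 ± 0.24 (SE, 95% interval -0.44 to 0.59). In the 3 sham libraries Hpgd took the same order as the hepatocyte sum, highest in sham 2 and lowest in sham 3, whereas in SCI 3 Hpgd was high without a high hepatocyte sum. With the hepatocyte level as a covariate its log2 fold change was 0.26 ± 0.16 (SE, adjusted p = 0.585 by edgeR).

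**Figure D4:**
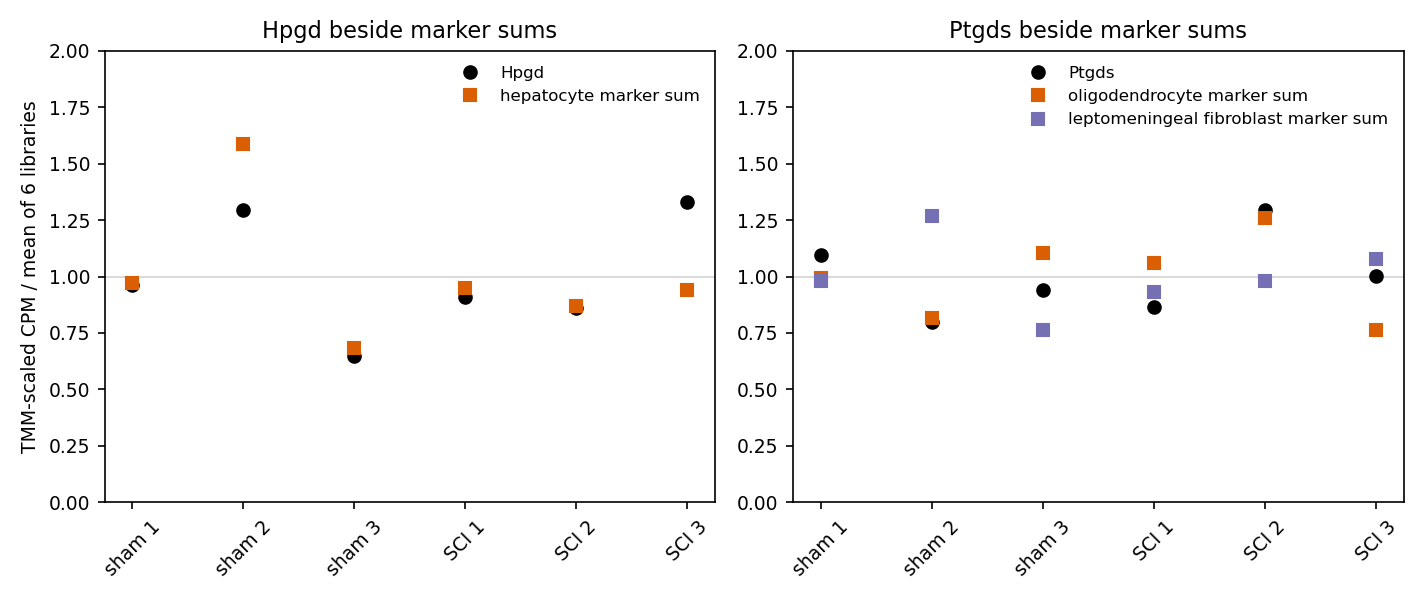
Levels of Hpgd (left) and Ptgds (right) in each library beside summed markers, each divided by its own mean over the 6 libraries (y axis, no unit). Hpgd and the hepatocyte sum were both high in sham 2 and low in sham 3 and lay apart in SCI 3. Ptgds and the oligodendrocyte sum were both highest in SCI 2 but lay apart in SCI 3, where that sum was lowest. The leptomeningeal sum was highest in sham 2.

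The receptors of prostaglandin E2 in the set, Ptger2 and Ptger4, encode EP2 and EP4, which raise cyclic AMP. Ptger2 had 3, 0 and 3 counts in sham and 6, 6 and 0 counts in SCI, too few to pass the filter, so it was not tested and no difference was detectable at this depth. Ptger4 was at 3.15, 1.73 and 4.61 CPM in sham and 3.02, 6.64 and 5.55 CPM in SCI. SCI 2 and SCI 3 were above all sham libraries and SCI 1 was below sham 1 and sham 3. The means were 3.16 ± 1.44 and 5.07 ± 1.86 CPM (SD, n = 3), with a log2 fold change of 0.76 ± 0.43 (SE, 95% interval -0.15 to 1.67) and an adjusted p of 0.759 by edgeR. The value of Ptger4 is uncertain, because its locus on chromosome 15 (5206661 to 5244187, - strand) overlaps Ttc33, a gene on the opposite strand, by 11676 bp. Ttc33 had 951 counts in sham and 861 in SCI. The processed pseudogene Gm15937, also on the opposite strand, overlaps the Ptger4 locus by 1235 bp and had 57 counts in sham and 27 in SCI. The labels do not say whether the counting used strand.

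Features that the choice of the set did not use also varied among its genes. The set had 5 genes on chromosome 2, Ptgs1, Ptges, Ptges2, Ptgds and Ptgis, and no other chromosome held more than 1. Ptgs2 had 14 copies of ATTTA, the core of AU-rich elements that shorten the life of an RNA, in an annotated 3′ UTR of 2445 nt. The longest annotated 3′ UTR of each gene was used. Of 12671 tested genes with an annotated 3′ UTR, 3.34% had at least as many copies, whatever its length. The median was 2 copies, and the median UTR length was 1418 nt. Ptges had no copy in 3106 nt and Ptgs1 none in 921 nt, and Ptgds (162 nt) and Ptgis (417 nt) also had none. The other genes had 4 to 6 copies, with 4 in Hpgd, Ptges2 and Ptges3, 5 in Ptger4 and 6 in Ptger2. Of the 2 genes that were called, 1 was thus among the richest in ATTTA and the other had none.

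The other genes of the pathway were described from lists of symbols. Release of arachidonate is the step before the cyclooxygenases, and of the 24 genes that had an entry, 14 were tested and 1 was higher, against 0.885% of all genes. This gene, Pla2g3, a secreted phospholipase A2, was at 4.60, 2.41 and 2.98 CPM in sham and 9.55, 15.0 and 10.7 CPM in SCI. All SCI libraries were above all sham libraries, with a log2 fold change of 1.82 ± 0.32 (SE, adjusted p = 0.00913 by edgeR). With SCI 2 left out it no longer passed (1.60 ± 0.36, adjusted p = 0.0814 by edgeR). The list's most counted genes were Mgll, the monoglyceride lipase that frees arachidonate in brain (221 ± 50.7 CPM in sham, 233 ± 48.8 in SCI, SD, n = 3), and Lpcat3, which puts it back into phospholipids (95.4 ± 28.2 and 88.8 ± 9.86). Both had log2 fold changes within 1 SE of 0. In the sham libraries both took the order of the hepatocyte sum, highest in sham 2 and lowest in sham 3. Among the SCI libraries both were highest in SCI 3 and the hepatocyte sum in SCI 1. The part of liver transcripts in their levels was not tested. The median over the 14 was -0.08, and 6 were positive. Pla2g4a, the cytosolic phospholipase A2 that supplies the cyclooxygenases, is outside the naming rule and is given because it is the nearest coding gene upstream of Ptgs2, 138740 bp away. It was at 3.15, 7.32 and 4.07 CPM in sham and 4.35, 3.61 and 3.96 CPM in SCI (log2 fold change -0.32 ± 0.37, SE), and the groups overlapped.

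None of the tested genes of the downstream lists was called, where 0.885% of all genes tested were called higher and 0.0442% lower. With so few genes nothing is read from this. The genes tested were 3 of 6 other prostanoid synthases, 7 of 7 transport and breakdown genes, 2 of 10 other prostanoid receptors and 4 of 14 genes of the lipoxygenase list. The lipoxygenase arm makes leukotrienes from the same arachidonate, and its list also held genes that are not enzymes of that arm. Of the 7 transport and breakdown genes 6 had negative values, with a median log2 fold change of -0.42 beside -0.0025 over all genes. Ptgr2, a prostaglandin reductase, was the 1 gene of the 7 whose SCI libraries all lay below the sham libraries, against 5.94% of all genes tested. Its levels were 49.6 ± 16.3 CPM in sham and 32.4 ± 7.90 in SCI (SD, n = 3), with a log2 fold change of -0.62 ± 0.24 (SE, adjusted p = 0.507 by edgeR). Cbr1, a carbonyl reductase that converts prostaglandin E2 to F2α, was at 179 ± 45.6 and 162 ± 12.7 CPM, and Fam213b, a prostamide and prostaglandin F synthase, at 55.0 ± 3.62 and 67.5 ± 7.51 CPM. In sham 1 to 3 Ptgr2 was at 40.6, 68.5 and 39.9 CPM and Cbr1 at 187, 219 and 129 CPM, the order of the hepatocyte sum. Among the SCI libraries Ptgr2 was highest in SCI 2, Cbr1 in SCI 3 and the hepatocyte sum in SCI 1. The part of liver transcripts in both genes was not tested. For Fam213b, 1 of the 3 tested synthases of its list, all SCI libraries lay above the sham libraries, against 7.73% of all genes tested. Its log2 fold change was 0.30 ± 0.17 (SE, adjusted p = 0.783 by edgeR).

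Most receptors were close to the limit of the depth. Of the 10 other receptor genes 8 failed the filter, and Ptgdr2, a receptor of prostaglandin D2, had no count in any library. The most counted were Ptgfrn, a regulator of the prostaglandin F2α receptor, at 8.40 ± 1.62 CPM in sham and 5.33 ± 2.83 in SCI, and Ppard, a nuclear receptor that lipid ligands activate, at 6.85 ± 1.94 and 9.37 ± 1.86 (SD, n = 3). Both overlapped between the groups. The most counted gene of the lipoxygenase list was Ephx2, the soluble epoxide hydrolase, which is not an enzyme of leukotriene synthesis. It was at 300.4 ± 105 CPM in sham and 293 ± 29.5 in SCI. In sham 1 to 3 Ephx2 was at 292, 409 and 200 CPM, the order of the hepatocyte sum, and the part of liver transcripts in it was not tested. Lta4h, which makes leukotriene B4, was at 4.95 ± 1.22 and 3.66 ± 0.169 CPM. Lta4h, 1 of the 4 tested genes of its list, was lower in every SCI library than in every sham library, against 5.94% of all genes tested. Its log2 fold change was -0.40 ± 0.34 (SE, adjusted p = 0.881 by edgeR). With lists this short nothing is read from such separations.

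**Figure D5:**
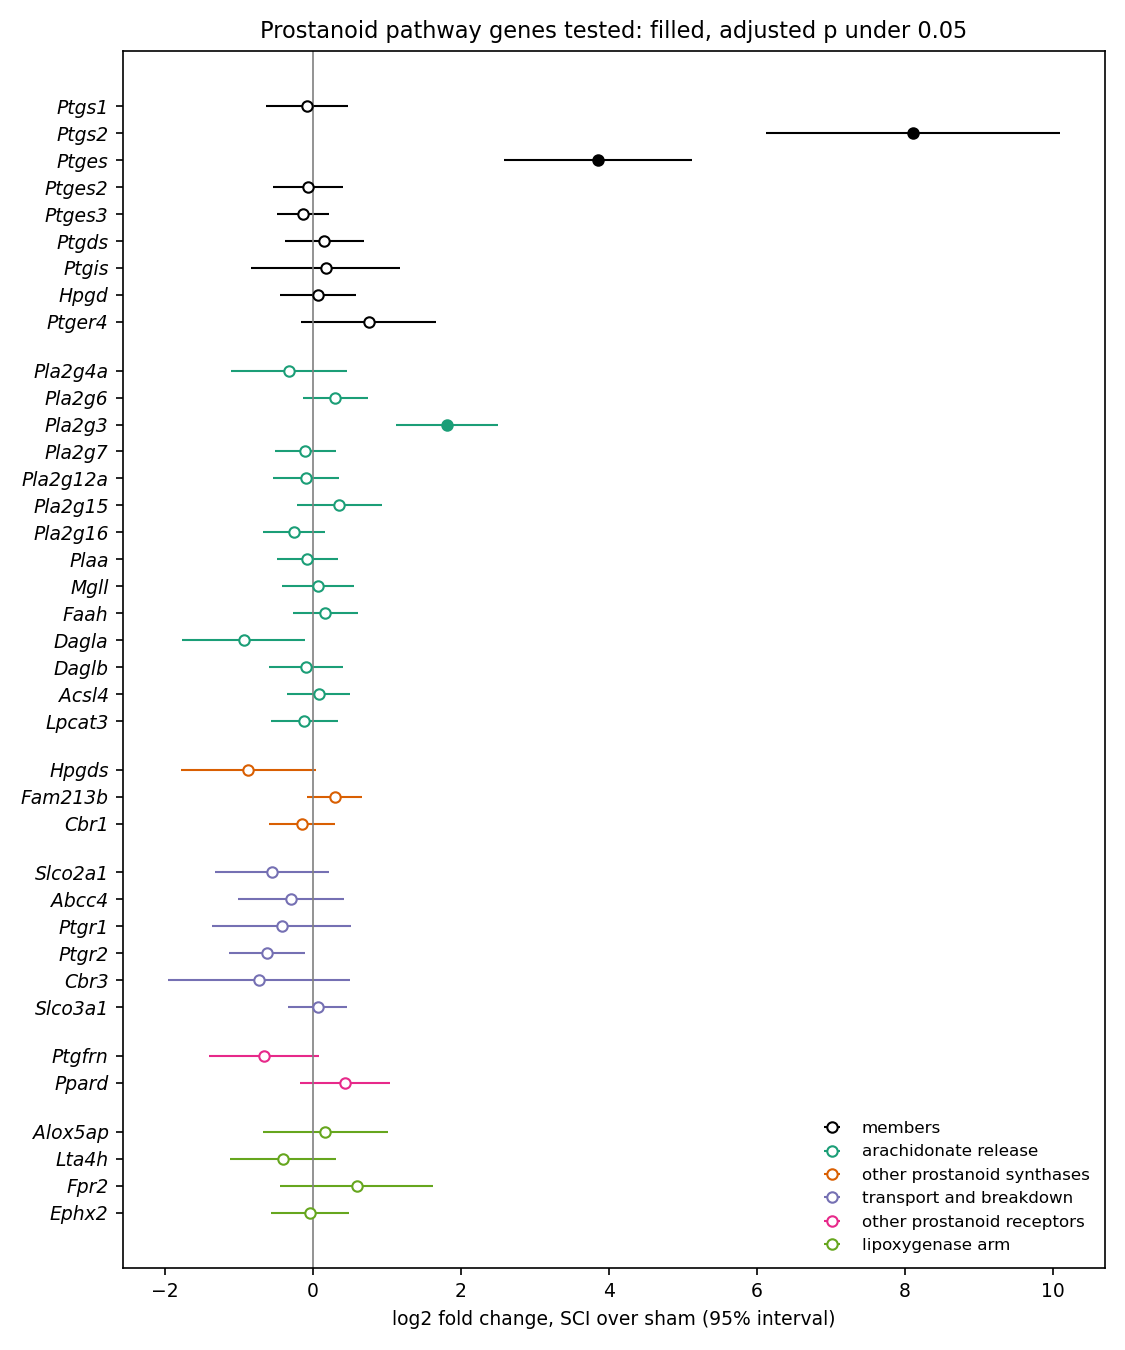
Log2 fold change of SCI over sham (x axis) with its 95% interval for the tested prostaglandin genes and the other tested genes of the pathway that are reported, coloured by list. Filled points passed an adjusted p under 0.05: Ptgs2, Ptges and Pla2g3; the Ptgs2 value depends on the prior count because its sham counts are 0.

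Genes known to control Ptgs2 were described in the same way. Of 20 such genes 18 were tested, 4 were higher and 0 lower, against 0.885% and 0.0442% of all genes. For 9 of the 18 the SCI libraries all lay above the sham libraries, against 7.73% of all genes, and the median log2 fold change was 0.52 beside -0.0025. The list was chosen with results of this comparison known, so nothing is read from these shares. The genes called were Cebpd, a C/EBP factor (8.53, 8.09 and 6.24 CPM in sham, 36.4, 48.7 and 36.3 in SCI), Fosb, an AP-1 subunit (0.525, 0.963 and 0.813 in sham, 33.4, 9.82 and 15.5 in SCI), Atf3, a stress-induced CREB-family factor (2.76, 1.25 and 1.36 in sham, 17.7, 17.2 and 16.7 in SCI), and Nfkbia, the inhibitor of NF-kB that NF-kB itself induces. The log2 fold changes were 2.38 ± 0.22, 4.63 ± 0.50 and 3.23 ± 0.32 (SE) for the first 3, with adjusted p-values of 5.74e-05, 0.000141 and 6.37e-05 by edgeR. Nfkbia was at 127 ± 39.8 and 268 ± 22.3 CPM (SD, n = 3), a log2 fold change of 1.07 ± 0.23 (SE, adjusted p = 0.0326 by edgeR). With 1 library left out, Nfkbia did not pass in 4 of the 6 cases, namely without sham 1 (adjusted p = 0.297 by edgeR), SCI 1 (0.189), SCI 2 (0.145) or SCI 3 (0.0817). Tsc22d3, a glucocorticoid-induced gene and the second most counted of the list, was at 138 ± 7.38 and 139 ± 6.99 CPM. The 2 genes that failed the filter, given after their values were seen, were Tnf, with 2 counts in sham and 38 in SCI, and Il6, with 0 counts in sham and 24 in SCI, of which 16 were in SCI 3.

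The genes most like Ptgs2 over the 6 libraries, by the root mean square difference of log2 CPM centred on each gene's mean, were Ccl4, a chemokine (0.290), Fosl1, an AP-1 subunit (0.387), and Ptx3, a secreted pentraxin (0.441). Ccl4 was at 0.0759 ± 0.0680 CPM in sham and 8.08 ± 2.75 in SCI, Fosl1 at 0.187 ± 0.162 and 6.02 ± 1.29, and Ptx3 at 0 and 2.71 ± 1.16 (SD, n = 3). Those most like Ptgds were Exd2 (0.0597), Ing2 (0.0692) and Tppp3 (0.0696), whose groups overlapped, Tppp3 for example at 134 ± 23.6 and 161 ± 33.2 CPM. The libraries compared share depth and composition, and likeness over 6 libraries is a description only.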

How the data were processed

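RNA of 6 spinal cord samples was sequenced as 3′ tag libraries with single-end reads of 50 bases, per the labels. The authors deposited raw read counts per Ensembl gene, not normalized, aligned with STAR 2.7.2b to GRCm38 (mm10) per the series' design text; DESeq2 1.24.0 is named in the submitters' processing notes. Neither the labels nor the files name the counting tool, its strand setting or its handling of molecular identifiers. A symbol was matched to 42462 of 43432 identifiers.

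Genes passed edgeR's filterByExpr (13560 of 21524 with a count). Libraries were scaled by TMM and compared with edgeR's quasi-likelihood F test (edgeR 4.0.16, limma 3.58.1, R 4.3.3) without covariates, with Benjamini-Hochberg adjustment over all genes tested and a threshold of 0.05. Each SE was taken as |log2 fold change| / √F. The biological coefficient of variation, from the common dispersion, was 19.9%. Each library was taken as 1 animal, from the 3 mice per group of the design text. No pair within a group was a duplicate (chi-square per degree of freedom 6.97 to 38.0).

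The genes and lists were chosen with earlier results of these data known. Named were all 10 genes, the called and the 2 most counted genes of each other list, and the 3 genes most like Ptgs2 and Ptgds. A gene that this rule names is not reported here. Of 83 pathway symbols 2, Plaat3 and Prxl2b, had no match, and their older names Pla2g16 and Fam213b did. Gene positions and 3′ UTRs came from GENCODE M21 and promoters from RefSeq (GRCm38.p6). Alternatives were RLE and total-count scaling, no filter and a stricter one (at least 10 counts in 3 libraries), DESeq2 1.42.0, limma voom, the replicate number as a block, the hepatocyte level as a covariate and each library left out.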

Additional observations from a re-analysis of the deposited data

How the results depend on the processing

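Over 14 alternative fits Ptgs2 and Ptges were the 2 prostaglandin genes called higher in every one, and none was called lower. The adjusted p ranged from 1.53e-13 to 0.0102 for Ptgs2 and from 5.27e-09 to 0.0267 for Ptges. The fitted log2 fold change ranged from 6.04, with limma voom, to 8.33 for Ptgs2 and from 3.36 to 4.19 for Ptges. Of 126 values of single prostaglandin genes 7 changed sign, none of them called. Ptgs1 was at 0.10 with the hepatocyte covariate, and with single libraries left out Ptgs1 ranged from -0.23 to 0.24, Ptgis from -0.12 to 0.48, Hpgd from -0.15 to 0.33 and Ptgds from -0.017 to 0.28. Without 1 SCI library each, the mean Ptgs2 share of cyclooxygenase counts was 26.8% to 34.0%.

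Over all genes, 182 were called higher and 42 lower with no filter on low counts, 188 and 21 with the hepatocyte covariate, and 11 lower with DESeq2. Leaving out single libraries gave 62 to 132 higher, fewest without sham 1, and 1 to 14 lower. The replicate numbers showed no pairing (correlations of deviations between same-numbered libraries -0.08, -0.07 and -0.17). In the replicate block fit 81 genes were higher and 1 lower, Ptgs2 was at 8.21 ± 0.98 (adjusted p = 0.0102) and Ptges at 3.68 ± 0.57 (adjusted p = 0.0188), while the adjusted p was 0.0734 for Pla2g3 and 0.135 for Nfkbia by edgeR. The causes of these shifts were not tested. Depth left Ptger2, with 6 counts in sham and 12 in SCI, untested, and leaves the size of the Ptgs2 difference without an upper limit.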
